A study of Mus musculus with 2 samples.

Results

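The 10 genes described here are S100a8, S100a9, Csf3r, Cxcr2, Cxcl1, Cxcl2, Cxcl3, Il1b, Ptgs2 and Hcar2, a set of transcripts that inflammatory neutrophils express, out of 32432 genes counted in every sample. They were taken by symbol from a fixed list, and all 10 symbols were found once each. Hcar2 was chosen by its lower level over all cells after Trex1 deletion in these same samples, and S100a8 was already known to be lower in lymphocytes here, so the genotype differences of Hcar2 and those of S100a8 in lymphocytes are given below as descriptions, with no test read from them. The identifiers are ENSMUSG00000056054 for S100a8, ENSMUSG00000056071 for S100a9, ENSMUSG00000028859 for Csf3r, ENSMUSG00000026180 for Cxcr2, ENSMUSG00000029380 for Cxcl1, ENSMUSG00000058427 for Cxcl2, ENSMUSG00000029379 for Cxcl3, ENSMUSG00000027398 for Il1b, ENSMUSG00000032487 for Ptgs2 and ENSMUSG00000045502 for Hcar2.

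The study asked how induced loss of Trex1, a DNA exonuclease that limits sensing of cytosolic DNA, changes the immune cells inside B16-F10 melanoma tumours. Male mice of 8 to 12 weeks received 1000 B16-F10 cells mixed with Matrigel in the skin of both legs, and 1 mg of tamoxifen was injected daily for 3 days beginning at day 5. Tumours were collected at day 14, and live CD45+ cells were sorted, tagged with hashtag antibodies that mark their sample of origin, and sequenced as 1 pool per genotype. The Trex1 iKO pool held 4 hashtagged samples from Trex1 fl/fl mice, and the Trex1 control pool held 4 from Trex1 wt/fl mice, which keep 1 allele that cannot be deleted and may lose the other. Both carried R26CreERT2 on 1 allele, a tamoxifen-activated Cre made in nearly all cell types, and both received tamoxifen, so neither genotype is an untreated or Cre-free state and the deletion was not limited to 1 cell type.

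Genotype and pool cannot be told apart, since each genotype was captured in its own pool. The labels do not say whether a hashtag marks 1 mouse, so the p-values measure only the spread between hashtagged samples, which may be technical. After filtering, 22052 of 23731 barcodes were kept, and the files held 17111065 to 96457227 unique molecular identifiers (UMIs, counted transcripts) per sample. Control cells were shallower, with a median depth of 5794 to 11490 UMIs against 12535.5 to 14221 in the iKO pool. No barcode was shared between samples of a pool, and 45 were shared over all pairs of samples. iKO samples 1 and 2 were alike and stood apart from iKO samples 3 and 4: the chi-square per degree of freedom between summed profiles was 23.6 within the first pair and 7.65 within the second, against 94.5 to 213 across them. Trex1 itself had 2 UMIs over all kept cells, both in control sample 2, so these 3' tags check nothing about the deletion.

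Neutrophils are short-lived granulocytes that leave the bone marrow under the growth factor receptor Csf3r and move towards inflamed tissue through the chemokine receptor Cxcr2. Their cytosol is filled with calprotectin, the dimer of the calcium-binding proteins S100a8 and S100a9. Cxcl1, Cxcl2 and Cxcl3 are the ligands of Cxcr2, and neutrophils and macrophages make them on activation and so can draw in further neutrophils. Il1b encodes the precursor of interleukin-1 beta, and Ptgs2 encodes the inducible cyclooxygenase that starts prostaglandin synthesis. Hcar2 is a G protein-coupled receptor for beta-hydroxybutyrate and nicotinic acid, found on adipocytes, neutrophils and macrophages.

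The 3 ligand genes lie in the same region of mouse chromosome 5 and share a promoter feature, which is shown because these 3 genes are read together below. Of the 10 genes, 9 had a promoter in the RefSeq table of build GRCm38.p6, a different build from the GRCm39 used for counting. A kappaB-type motif, GGGA followed by any base and then TTTCC, searched on both strands in the 250 bases before each start, was found in Cxcl1, Cxcl2 and Cxcl3 and in none of the other 6 matched promoters. It was found in 117 of all 32851 promoters searched over the same length (0.356%). The 150 bases before each start follow on the plus strand with the matched letters in capitals.
Cxcl1: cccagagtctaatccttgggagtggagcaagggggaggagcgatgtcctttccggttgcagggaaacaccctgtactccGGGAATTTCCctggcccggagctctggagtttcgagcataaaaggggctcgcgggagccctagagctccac
Cxcl2: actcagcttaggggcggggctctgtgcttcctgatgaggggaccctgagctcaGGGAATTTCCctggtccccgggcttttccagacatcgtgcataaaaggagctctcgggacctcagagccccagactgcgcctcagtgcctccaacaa
Cxcl3: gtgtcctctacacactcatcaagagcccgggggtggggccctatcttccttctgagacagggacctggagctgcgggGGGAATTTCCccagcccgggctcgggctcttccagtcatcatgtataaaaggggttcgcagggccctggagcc
The Cxcl1 stretch is chr5:90891095-90891244, with the match 71 to 62 bases before the start. The Cxcl2 stretch is chr5:90903749-90903898, with the match 97 to 88 bases before the start, and the Cxcl3 stretch is chr5:90785951-90786100, with the match 73 to 64 bases before it. A match of letters is a description and not evidence that a factor binds there.

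To separate neutrophils from macrophages and lymphocytes, cells were clustered without the 10 genes and clusters were named from markers that hold none of them. Clusters 4 and 15 carried the neutrophil markers, 8 and all 10 of 10 respectively, and together are called neutrophil-like. They held 1134 and 775 cells. From sample 1 to sample 4, iKO had 55, 204, 66 and 149 cells of this class and control had 320, 362, 281 and 472. As a share of kept cells the iKO samples had 1.45%, 3.57%, 5.10% and 6.15% and the control samples 16.4%, 21.3%, 10.4% and 19.2%. Every iKO sample was below every control sample. The means were 4.07% ± 2.04 (SD, n = 4) and 16.8% ± 4.76 (SD, n = 4), a difference of -12.8 percentage points (exact permutation test, two-sided, p = 0.0286, the smallest that 4 against 4 samples can give). Within the class, the 10 neutrophil markers summed to 10300 to 33700 CPM (counts scaled to 1e6 UMIs) in iKO and 10400 to 14600 in control. Markers of other classes were present at lower levels: the 14 monocyte/macrophage markers summed to 1130 to 2340 CPM in iKO and 868 to 2220 in control, the 6 T cell markers to 113 to 313 and 123 to 185, and the 6 B cell markers to 2.56 to 8.64 and 15.3 to 100. All 6 mast cell and basophil markers were at 0 in both genotypes. The part of these other cells in the levels below was not tested.

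All levels below are CPM of the summed UMIs of 1 class in 1 sample, a scale that compares samples and classes for 1 gene but not genes with each other. S100a8, S100a9 and Cxcr2 were held almost wholly by neutrophil-like cells: these cells had 87.1% to 97.7% of S100a8 UMIs in iKO and 90.0% to 96.5% in control, 87.3% to 97.3% and 90.0% to 96.7% of S100a9 UMIs, and 82.2% to 96.8% and 92.5% to 95.7% of Cxcr2 UMIs. Hcar2 and Csf3r were shared with monocyte/macrophage-like cells. Neutrophil-like cells held 25.1%, 51.0%, 43.6% and 57.5% of Hcar2 UMIs in iKO samples 1 to 4 and 72.4%, 80.5%, 69.7% and 73.8% in control, with no overlap. For Csf3r the shares were 11.4% to 49.7% in iKO and 70.7% to 81.5% in control. The other genes lay mostly outside neutrophil-like cells, the exceptions being Cxcl2 in 2 control samples and Cxcl3 in 1. The shares were 4.10% to 16.3% in iKO and 23.7% to 37.9% in control for Il1b and 2.44% to 11.8% and 19.8% to 35.6% for Ptgs2. They were 13.1% to 47.2% and 26.6% to 66.9% for Cxcl2, 7.01% to 31.1% and 12.7% to 55.1% for Cxcl3, and 0% to 29.9% and 1.92% to 29.6% for Cxcl1.

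**Figure D1:**
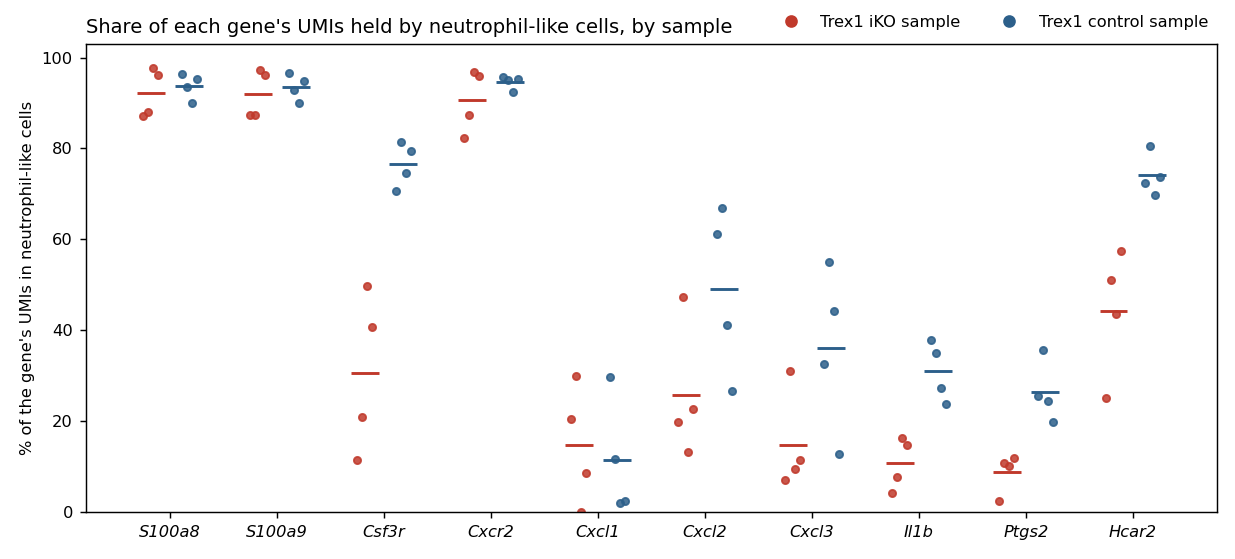
Share of each gene's UMIs (vertical axis, %) that lay in neutrophil-like cells, 1 point per hashtagged sample, with bars at the group means. S100a8, S100a9 and Cxcr2 sit above 82% in every sample of both genotypes, while the Hcar2 shares of the iKO samples (25.1% to 57.5%) lie below those of the control samples (69.7% to 80.5%).

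The order of classes was led by neutrophil-like cells for Hcar2 and Il1b in both genotypes. For Hcar2 the class means were 1330 CPM ± 537 (SD, n = 4) in iKO and 1640 ± 651 in control, followed by monocyte/macrophage-like cells at 47.3 ± 16.0 and 73.3 ± 22.4, with no overlap between these neighbours. Conventional dendritic cells of type 2 (cDC2-like) had 18.2 ± 1.66 and 17.5 ± 2.57 CPM, and all lymphocyte-like classes were at 12.6 or less. Il1b was also high in other myeloid cells. It measured 8830 ± 1870 and 9190 ± 1880 CPM in neutrophil-like cells, then 2260 ± 125 and 2300 ± 206 in cDC2-like and 2140 ± 131 and 2320 ± 462 in monocyte/macrophage-like cells, a pair of neighbours that overlapped. Cxcl1 had no clear order: neutrophil-like cells had 56.0 ± 68.1 CPM in iKO and 19.9 ± 18.3 in control, and monocyte/macrophage-like cells had 12.9 ± 9.91 and 27.2 ± 5.31, overlapping in both genotypes.

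**Figure D2:**
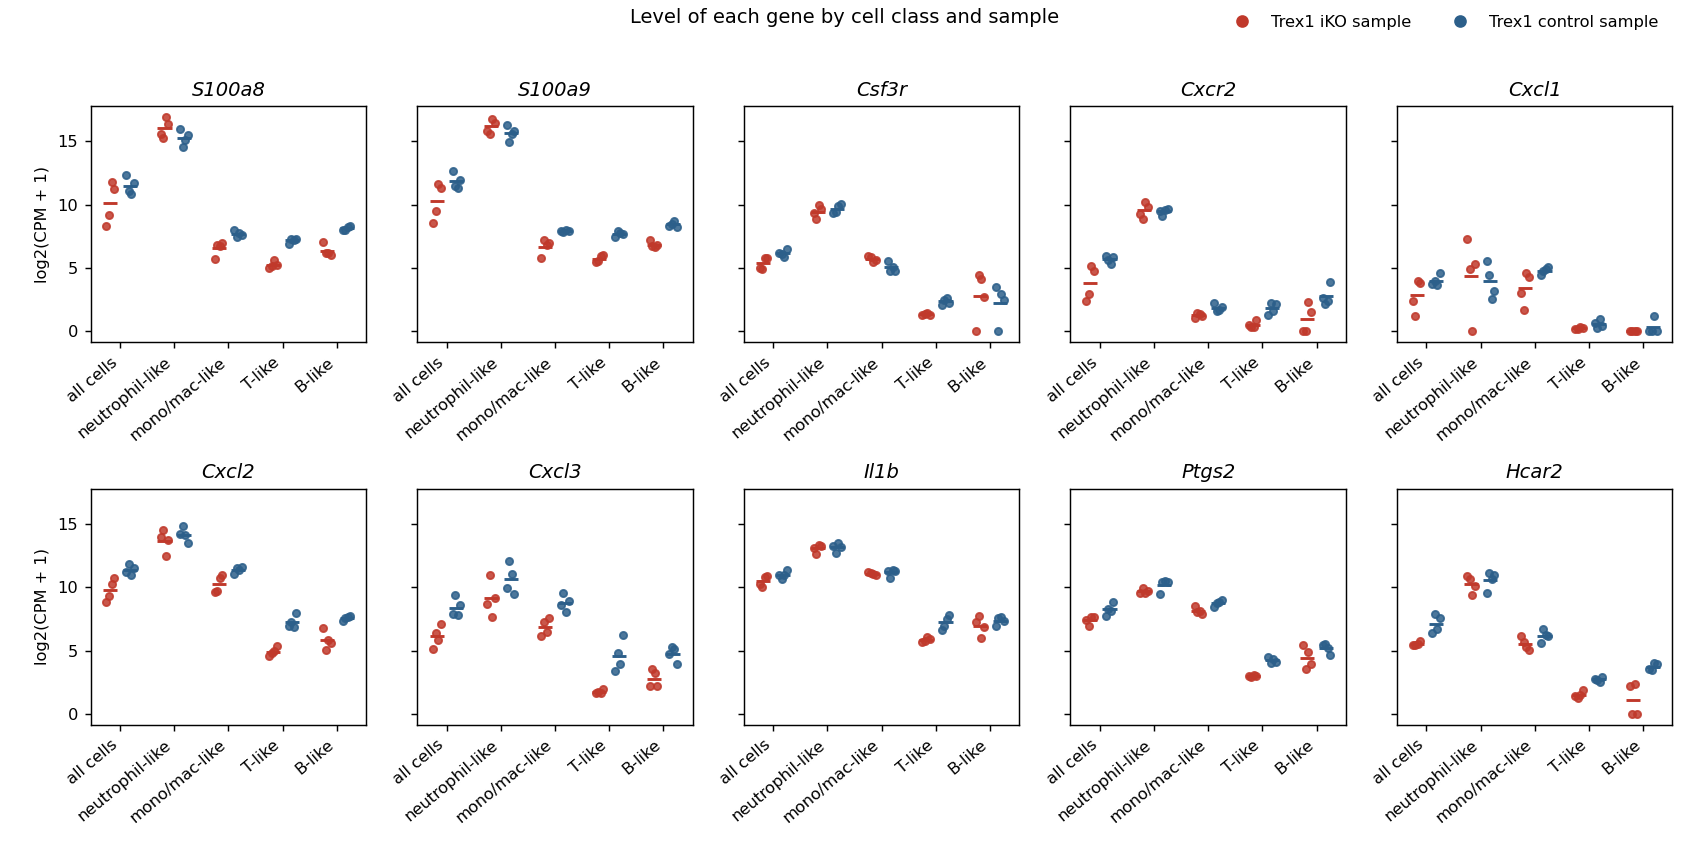
Level of each of the 10 genes, as log2(CPM + 1) on the vertical axis, in all kept cells and in 4 classes, with 1 point per hashtagged sample and bars at the group means. In neutrophil-like cells the iKO and control points overlap for all 10 genes, and in T-like cells the iKO points lie below the control points for S100a8, S100a9, Cxcl2, Il1b, Ptgs2 and Hcar2.

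Over all kept cells, Hcar2 measured 42.7, 41.4, 43.6 and 53.6 CPM in the iKO samples, listed here and below from 1 to 4, and 82.5, 229, 104 and 185 CPM in the control samples. This is the difference that chose the gene. The groups did not overlap, and the edgeR log2 fold change, iKO over control, was -1.75 ± 0.33 (SE). A level summed over all cells cannot by itself tell fewer cells of a type from less RNA per cell, so each level was split by the class of the cell that held the UMIs. Neutrophil-like cells contributed 10.7, 21.1, 19.0 and 30.8 of these CPM in iKO and 59.7, 184, 72.8 and 136 in control. Monocyte/macrophage-like cells contributed 30.4, 18.3, 22.6 and 20.6 in iKO and 19.2, 39.3, 24.4 and 45.9 in control. Neutrophil-like contributions were fully separate between genotypes, monocyte/macrophage-like ones overlapped, and all other cells together gave 1.52 to 2.22 CPM in iKO against 2.40 to 7.24. With the neutrophil-like cells left out, Hcar2 was at 32.1, 20.6, 25.3 and 23.4 CPM in iKO and 24.7, 48.8, 33.2 and 51.8 in control, and its log2 fold change was -0.67 ± 0.26. Within neutrophil-like cells alone it was -0.19 ± 0.31. The direction there depended on the unit. In UMIs per cell the neutrophil-like Hcar2 means were 8.52 in iKO and 7.21 in control, a log2 ratio of 0.24. iKO cells of that class were deeper, with a median of 5839.5 UMIs against 4039.

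**Figure D3:**
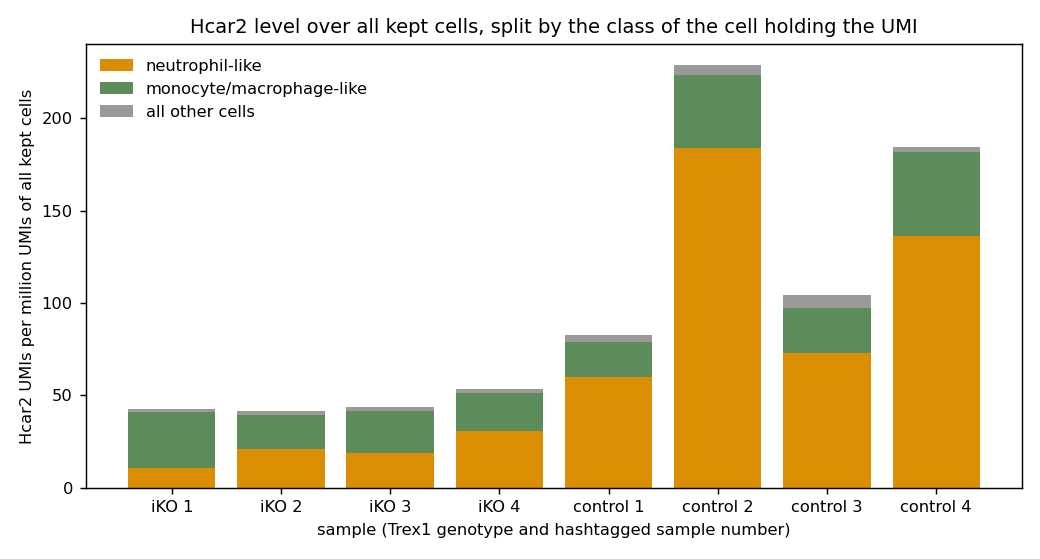
Hcar2 level over all kept cells in CPM (vertical axis) in each hashtagged sample, stacked by the class of the cell that held the UMI. The neutrophil-like part of the bars is 10.7 to 30.8 in iKO and 59.7 to 184 in control, while the monocyte/macrophage-like parts overlap.

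The other 9 genes were also lower in iKO over all cells in log2 fold change, from -0.48 ± 0.24 for Il1b to -2.25 ± 0.51 for Cxcl3. edgeR's quasi-likelihood test with Benjamini-Hochberg adjustment called 1 of the 10, Hcar2, against 2.53% of all genes tested, and nothing is read from that count because that contrast chose the gene. The smallest adjusted p of the other 9 was 0.0611 for Cxcl3, and with the sample number as a block it was 0.00703 (log2 fold change -2.29), the count over all genes going from 340 to 708. DESeq2's Wald test called 4 of those 9, Csf3r (-0.79, adjusted p 0.0409), Cxcl2 (-1.48, 0.00614), Cxcl3 (-2.25, 0.00014) and Ptgs2 (-0.88, 0.0257), with 1381 genes called in all. Levels of iKO and control samples were fully separate for 5 of the other 9, Csf3r, Cxcr2, Cxcl2, Cxcl3 and Ptgs2, against 13.7% of all genes. With 1 sample left out at a time, the log2 fold change of Hcar2 ranged from -1.94 to -1.49. With the neutrophil-like cells left out, 3 of 10 were called, all lower, against 1.81% of all genes: S100a8 (-1.31 ± 0.23), S100a9 (-1.47 ± 0.21, adjusted p 0.0119) and Cxcr2 (-1.59 ± 0.18, 0.00406). This profile holds the lymphocytes in which S100a8 was already known to be lower, so S100a8 is counted here as a description. S100a9 is its partner and is no independent evidence. The levels of these 3 genes in T-like cells are given beside the class values below, and their part in this count was not tested. Csf3r then turned to a log2 fold change of 0.62 ± 0.19 (adjusted p 0.14).

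Both calprotectin genes overlapped between genotypes within neutrophil-like cells. S100a8 measured 48900, 39400, 122000 and 84800 CPM in iKO samples 1 to 4 and 63100, 24300, 35400 and 46600 in control. iKO samples 3 and 4 were the highest, iKO samples 1 and 2 lay among the control values, and the log2 fold change of 1.05 ± 0.49 did not pass the test (edgeR adjusted p 0.51). S100a9 measured 58500, 49700, 110000 and 90000 CPM in iKO and 79000, 31100, 47900 and 56000 in control, again with overlap (0.75 ± 0.44, adjusted p 0.611). The order was the other way in monocyte/macrophage-like cells. S100a8 there was at 51.9, 111, 107 and 123 CPM in iKO and 250, 176, 215 and 192 in control, with every iKO sample below every control sample, and fell by 1.14 on the log2 scale (SE 0.22, adjusted p 0.0175). S100a9 fell from 240, 228, 261 and 244 CPM in control samples 1 to 4 to 54.4, 146, 110 and 124 in iKO (log2 fold change -1.21 ± 0.24, adjusted p 0.0178), a call lost without control sample 2 (0.0505) or control sample 4 (0.0521). T-like cells, which are not known to make calprotectin, also held these transcripts: T-like S100a8 was 42.0% (range 30.6% to 60.9%) of the monocyte/macrophage-like level in iKO and 72.2% (47.9% to 89.2%) in control. After subtracting each sample's T-like level, the mean S100a8 in monocyte/macrophage-like cells was 60.0 CPM in iKO and 62.3 in control, a log2 ratio of -0.05, and that of S100a9 turned from -1.16 to 0.55 (55.6 and 37.9 CPM). That outcome depended on the unit, since control T-like cells were shallower than control monocyte/macrophage-like cells, with medians of 6657.5 and 14121 UMIs. Subtracted as UMIs per cell, an alternative chosen after seeing the data, S100a8 was left at 1.07 in iKO and 1.74 in control (log2 ratio -0.70) and S100a9 at 1.04 and 1.66 (-0.67). How much free RNA a cell of each class takes up was not tested.

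The receptors differed in where they were found. Cxcr2 in neutrophil-like cells was at 625, 457, 1210 and 894 CPM in iKO and 725, 548, 772 and 804 in control, with overlap (log2 fold change 0.41 ± 0.35, adjusted p 0.733). In monocyte/macrophage-like cells it was at 1.14 to 1.77 CPM in iKO and 2.03 to 3.79 in control, and it fell by 0.95 on the log2 scale (SE 0.25, edgeR adjusted p 0.0396), a call that ended with the sample number as a block (0.0868) and on leaving out any 1 sample. The T-like level of Cxcr2 was 33.0% of that level in iKO and 108% in control, and after subtraction the log2 ratio turned from -0.89 to 0.66. In UMIs per cell 0.0176 and 0.0166 were left, a log2 ratio of 0.08. Csf3r, the receptor for granulocyte colony-stimulating factor, was at 639, 468, 974 and 799 CPM in iKO neutrophil-like cells and 649, 675, 941 and 1070 in control (0.02 ± 0.31, adjusted p 0.992). Csf3r went the other way from the remaining genes in monocyte/macrophage-like cells: it was at 60.7, 58.7, 44.1 and 48.4 CPM in iKO and 46.7, 26.1, 32.6 and 26.5 in control, overlapping only through control sample 1. Its log2 fold change there was 0.66 ± 0.20 (adjusted p 0.0644) and passed the test with the sample number as a block (0.67, adjusted p 0.0332). The T-like level of Csf3r was 3.09% of the monocyte/macrophage-like level in iKO and 13.8% in control.

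Hcar2 within neutrophil-like cells was at 1890, 1620, 682 and 1110 CPM in iKO samples 1 to 4 and 755, 2220, 1560 and 2020 in control. The lowest values of both genotypes, 682 in iKO sample 3 and 755 in control sample 1, were close together, and the groups overlapped. In monocyte/macrophage-like cells Hcar2 was at 68.7, 50.2, 37.8 and 32.6 CPM in iKO and 47.5, 102, 74.2 and 69.6 in control, also with overlap (log2 fold change -0.65 ± 0.29). In T-like cells it was at 1.38 to 2.77 CPM in iKO and 4.84 to 6.44 in control, which was 4.59% and 8.28% of the monocyte/macrophage-like level, and subtracting it left means of 45.5 and 67.7 CPM in monocyte/macrophage-like cells.

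Of the ligands of Cxcr2, Cxcl2 and Cxcl3 were lower in iKO monocyte/macrophage-like cells and Cxcl1 did not pass the test. Cxcl2 in monocyte/macrophage-like cells was at 774, 816, 1680 and 1940 CPM in iKO and 2090, 2880, 2670 and 3070 in control, with every iKO sample below every control sample. It fell by 1.11 on the log2 scale (SE 0.27, edgeR adjusted p 0.0315), a call that held in 3 of 8 fits that each left out 1 sample and was lost on removing iKO 1, iKO 2, control 2, control 3 or control 4 (highest adjusted p 0.0851). Cxcl3 was at 68.0, 152, 85.0 and 193 CPM in iKO and 375, 736, 267 and 485 in control, again without overlap, and fell by 1.96 (SE 0.39, adjusted p 0.0176), a call lost without control sample 2 (0.0508) or control sample 4 (0.0511). Cxcl1 was at 7.35, 2.25, 24.0 and 18.1 CPM in iKO and 20.4, 26.6, 28.6 and 33.2 in control, and the difference of -1.21 ± 0.54 did not pass (adjusted p 0.169). The T-like levels of these 3 genes were 2.09% to 6.70% of the monocyte/macrophage-like means, and after subtraction the log2 ratios were -0.98 for Cxcl2, -1.83 for Cxcl3 and -1.06 for Cxcl1.

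In neutrophil-like cells Cxcl2 was at 15400, 22600, 5680 and 13400 CPM in iKO and 18400, 29500, 17200 and 11300 in control (log2 fold change -0.32 ± 0.37, adjusted p 0.821). Cxcl3 there was at 415, 1980, 196 and 569 CPM in iKO and 957, 4340, 2060 and 713 in control (-1.25 ± 0.64, adjusted p 0.562). Cxcl1 was at 155, 29.9, 0 and 39.3 CPM in iKO and 45.2, 21.1, 4.94 and 8.33 in control (1.35 ± 0.81, adjusted p 0.62). The differences of the fold change between the classes were not called either, at 0.85 for Cxcl2 (adjusted p 0.773) and 0.62 for Cxcl3 (0.861). All 3 overlapped between genotypes in neutrophil-like cells, and sample 2 had the highest Cxcl2 and Cxcl3 in both. Without the filter on low counts, Cxcl3 (-1.30, adjusted p 0.000142) and Cxcl1 (1.26, 0.00156) passed the test in neutrophil-like cells, in opposite directions.

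Il1b did not pass the test in either myeloid class fitted. It was at 8660, 6270, 10500 and 9890 CPM in iKO neutrophil-like cells and 9510, 6740, 11300 and 9220 in control (log2 fold change 0.15 ± 0.30, adjusted p 0.907). In monocyte/macrophage-like cells it was at 2300, 2180, 2040 and 2020 CPM in iKO and 2480, 1640, 2660 and 2510 in control (-0.16 ± 0.14, adjusted p 0.503). The exons of Il1b overlap the antisense gene Il1bos in the annotation, and how strand was used in counting is not given in the sources used here, so Il1b counts could include reads of that gene. Ptgs2 was at 743, 999, 729 and 837 CPM in iKO neutrophil-like cells and 692, 1360, 1440 and 1330 in control (-0.36 ± 0.24, adjusted p 0.662), where control sample 1 stood apart from the other controls. In monocyte/macrophage-like cells it was at 359, 268, 279 and 241 CPM in iKO and 341, 429, 451 and 510 in control, overlapping only through iKO sample 1 and control sample 1. It fell by 0.63 on the log2 scale there (SE 0.17, adjusted p 0.0429), a call that ended with the sample number as a block (-0.64, adjusted p 0.0835) and held in 2 of 8 fits that left out 1 sample (highest adjusted p 0.11).

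Counted over the set, edgeR called 0 of 10 genes in neutrophil-like cells against 1.45% of the 6640 genes tested, and the groups overlapped for all 10 against 6.23% of genes that did not overlap. DESeq2 also called 0 of 10, against 148 of 6640 genes. By edgeR 0 of 10 had an unadjusted p under 0.05, against 654 of 6640 genes. In monocyte/macrophage-like cells 6 of 10 were called, all lower in iKO, against 11.5% of 11768 genes, and 5 of 10 did not overlap, against 19.1%. DESeq2 called 7 of 10 there, against 2056 of 11768 genes, Csf3r being the added one and higher in iKO (0.65, adjusted p 0.0218). Leaving out control sample 2 or control sample 4 cut the count of 6 to 1. The genes called in all then also fell, from 1349 of 11768 to 410 of 12209 and 442 of 11441. Leaving out any other sample gave counts of 3 to 6, with 365 to 1642 genes called in all. Among the 6, S100a8, S100a9 and Cxcr2 had mean T-like levels of 72.2%, 86.7% and 108% of the class level in control. In iKO these were 42.0%, 53.7% and 33.0%. The part of RNA from outside these cells in the count was not tested. The test of the difference itself, the class by genotype interaction between neutrophil-like and monocyte/macrophage-like cells, called 0 of 10 against 0.00941% of all genes. The largest differences were those of Cxcl1 (3.01 ± 0.97, edgeR adjusted p 0.444), S100a8 (2.10 ± 0.39, 0.0902) and S100a9 (2.00 ± 0.40, 0.0902), and that of Hcar2 was 0.54 ± 0.24. Cxcl1 was near the floor in neutrophil-like cells, with means of 0.354 UMIs per cell in iKO and 0.101 in control. S100a8 and S100a9 passed on leaving out iKO sample 2 (0.00251 and 0.00263), and with Cxcl1 they passed without the filter on low counts, where the count over all genes went from 1 to 115.

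**Figure D4:**
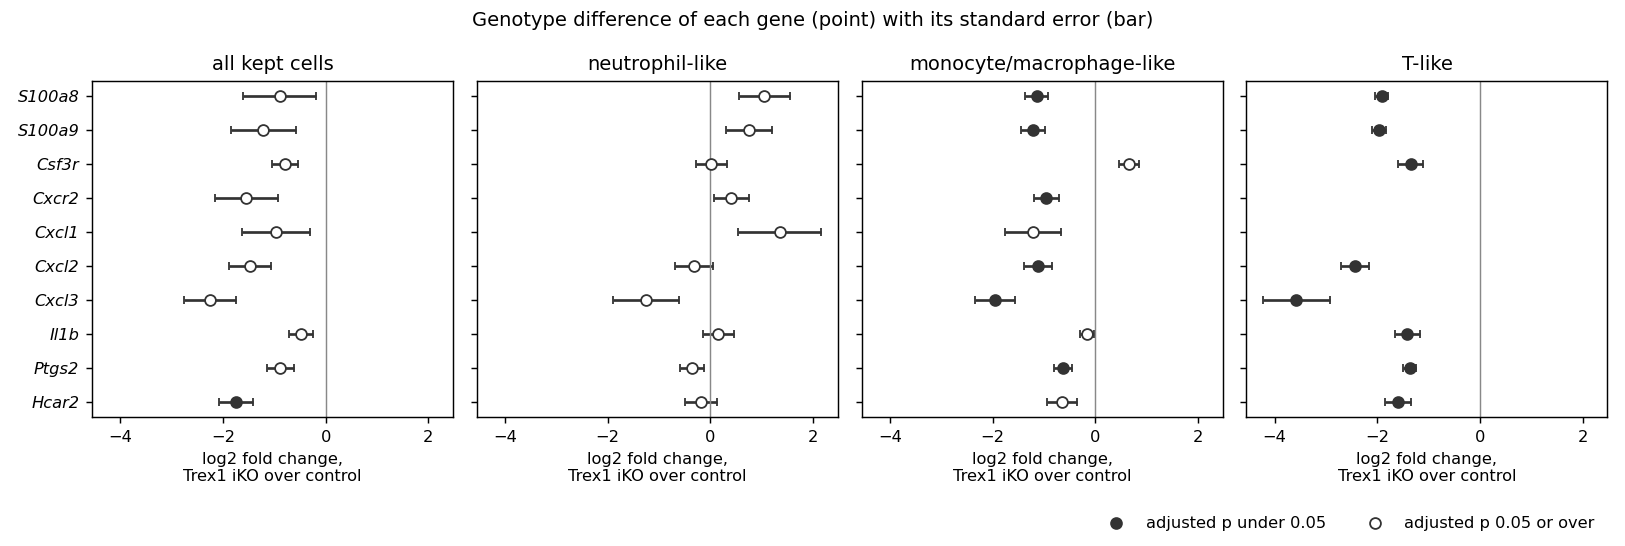
Log2 fold change of each gene, iKO over control (horizontal axis), with its standard error, over all kept cells and in 3 classes, from 4 samples per genotype. Filled points have an edgeR adjusted p under 0.05: 1 of 10 over all cells, 0 of 10 in neutrophil-like, 6 of 10 in monocyte/macrophage-like and 8 of 8 tested in T-like cells, where S100a8 and Hcar2 are descriptions.

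The neutrophil-like class held a pair of clusters with different profiles, and these were present in both genotypes. Cluster 15 was led by Retnlg, Cxcr2, S100a8, S100a9, Lcn2, Mmp9 and Ly6g, which mark mature neutrophils, and cluster 4 by Cstdc4, Hcar2, Cxcl2, Stfa2l1 and Cxcl3. Cluster 4 made up 50.9%, 77.0%, 18.2% and 48.3% of neutrophil-like cells in iKO samples 1 to 4 and 60.3%, 70.2%, 43.8% and 62.5% in control, so iKO sample 3, with the lowest Hcar2, Cxcl2 and Cxcl3 and the highest S100a8, also had the lowest share of cluster 4. In cluster 4, Hcar2 was 2430 CPM ± 690 (SD, n = 3) in iKO and 2200 ± 733 (SD, n = 4) in control. iKO sample 3 had too few cells there and was left out of that cluster's fit. In cluster 15, Hcar2 was 524 ± 201 in iKO and 682 ± 341 in control (n = 4 each). Cxcl2 was 25800 and 27600 CPM in cluster 4, and 5160 and 5660 in cluster 15. S100a8 was 29900 ± 10200 and 28400 ± 13500 CPM in cluster 4, and 102000 ± 29600 and 64400 ± 19400 in cluster 15. Il1b was higher in cluster 15, at 12600 ± 1240 and 15900 ± 1730 CPM, than in cluster 4, at 4480 ± 1190 and 5090 ± 1500. By genotype, edgeR called 0 of 10 genes in cluster 4, where it called 0% of all genes (474 genes of 6189 had an unadjusted p under 0.05), and 0 of 9 in cluster 15 against 4.03%.

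The monocyte/macrophage-like class held the same clusters in both genotypes, several of them in different shares. Cluster 3, led by Inhba, Mmp12, Arg1, Vegfa and Thbs1, made up 5.50% to 8.86% of the class in iKO and 20.7% to 33.7% in control, with means of 7.36% and 25.1%. Cluster 14, led by Pf4, Ccl7, Arg1, Mrc1 and Spp1, made up 6.52% and 13.8% on average, with overlap (1.56% to 11.4% and 5.14% to 26.8%). Clusters 5, 1 and 18, led by Ace, by Cxcl9 and by Cxcl10, had higher mean shares in iKO, at 16.9%, 15.4% and 8.95% against 2.97%, 2.79% and 1.22%. The shares of cluster 1 overlapped, at 4.24% to 26.6% and 1.09% to 4.33%. Of the monocyte/macrophage-like clusters, cluster 3 had the highest mean Cxcl2, Cxcl3, Ptgs2 and Hcar2 in both genotypes. In iKO cells of cluster 5, Cxcl2 was at 229 CPM and Cxcl3 at 3.12, while Csf3r was at 80.7 there and at 32.9 in cluster 3. Within cluster 3, Cxcl2 was 5600 CPM ± 1970 in iKO and 6110 ± 1020 in control, Cxcl3 1090 ± 388 and 1100 ± 388, Ptgs2 814 ± 119 and 774 ± 89.4, and Hcar2 213 ± 86.1 and 169 ± 54.2 (SD, n = 4 each). The log2 fold changes of these genes in cluster 3 were -0.17 ± 0.21 (edgeR adjusted p 0.812), -0.06 ± 0.28 (0.973), 0.03 ± 0.13 (0.974) and 0.29 ± 0.30, so the falls of Cxcl2, Cxcl3 and Ptgs2 in the whole class were not detected inside it. In cluster 3, 1 of 9 genes was called, against 0.154% of all genes: S100a9 (-2.19 ± 0.22, adjusted p 0.00288). S100a9 in cluster 3 was at 46.8 to 102 CPM in iKO and 263 to 354 in control. The T-like levels were 42.3 to 63.6 and 175 to 247 CPM, and the part of RNA from outside the cells was not tested. In cluster 14, Cxcl2 was 2920 ± 587 and 4240 ± 586 CPM and Cxcl3 296 ± 282 and 935 ± 234, lower in every iKO sample than in any control sample. Cxcl2 was also separate in cluster 22, at 708 to 1810 CPM in iKO (n = 3) and 2010 to 2660 in control. In cluster 23 it was at 220 to 236 (n = 2) and 248 to 424. Clusters 0 and 9 overlapped, with Cxcl2 means of 1100 and 612 CPM in iKO and 978 and 460 in control. Of the clusters of this class only cluster 3 was fitted, chosen after seeing the data for its highest Hcar2. The part of cluster shares in the falls was not tested.

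**Figure D5:**
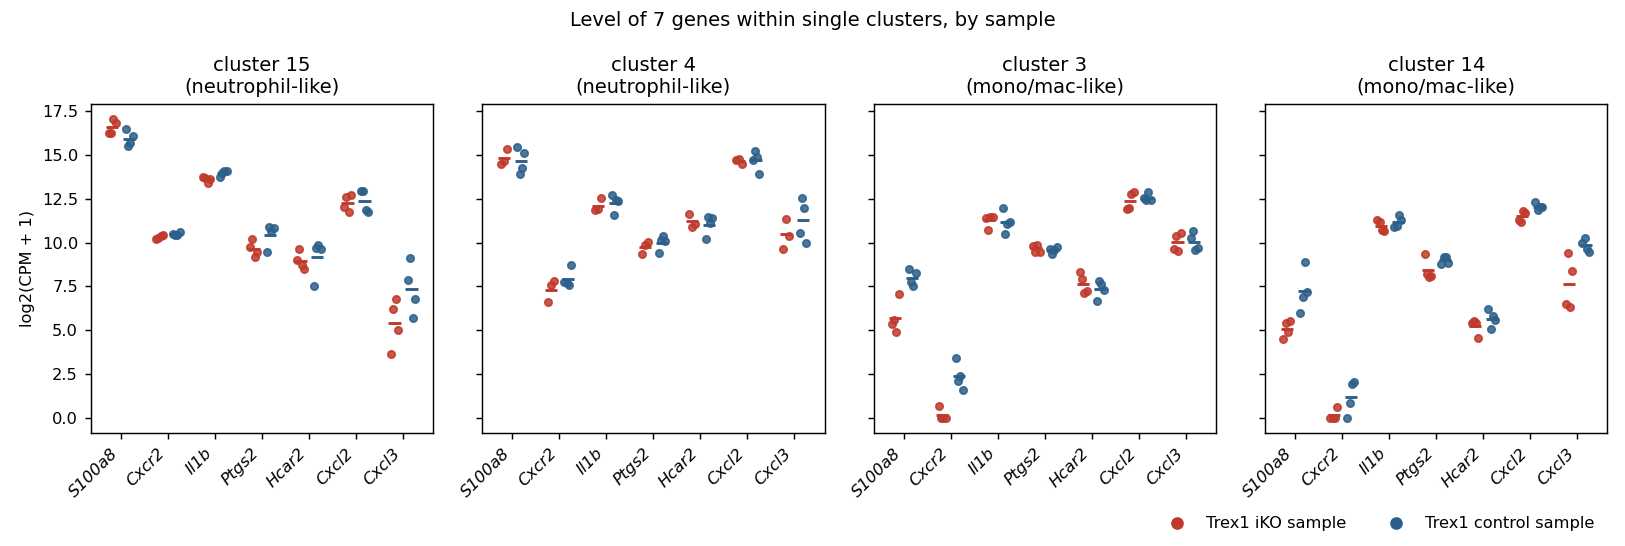
Level of 7 of the genes, as log2(CPM + 1) on the vertical axis, in 4 single clusters, with 1 point per hashtagged sample of at least 20 cells and bars at the group means. In cluster 3 the Cxcl2, Cxcl3, Ptgs2 and Hcar2 points of the genotypes overlap, while S100a8 is lower in iKO, as it was in T-like cells.

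Lymphocytes are not known to express most of these genes, so their levels there are read as background. Free RNA in the droplets, remaining doublets and myeloid cells placed in these classes were not told apart. In T-like cells the 14 monocyte/macrophage markers summed to 1070 to 1330 CPM in iKO and 685 to 903 in control. In T-like cells S100a8 was at 31.6, 34.8, 48.2 and 37.5 CPM in iKO and 120, 157, 149 and 159 in control, a log2 fold change of -1.92 ± 0.13. S100a9 was at 42.3, 45.7, 60.1 and 63.6 CPM in iKO and 175, 247, 218 and 201 in control (-1.97 ± 0.14, edgeR adjusted p 0.000324). Cxcl2 was at 22.6 to 39.0 and 115 to 254 CPM (-2.43 ± 0.27, 0.00175), Il1b at 50.0 to 64.9 and 98.2 to 227 (-1.42 ± 0.24, 0.0128), and Ptgs2 at 6.40 to 7.44 and 15.5 to 21.2 (-1.37 ± 0.13, 0.00079). Every iKO sample was below every control sample for each of these. Control T-like cells were shallower, with a median of 6657.5 UMIs against 13292 in iKO, so UMIs per cell are given too. In iKO and control the means were 0.513 and 1.42 for S100a8, 0.704 and 2.03 for S100a9, and 0.393 and 1.57 for Cxcl2. They were 0.77 and 1.49 for Il1b and 0.0951 and 0.178 for Ptgs2. No fold change was fitted per cell. Of the 8 genes that passed the filter on low counts, S100a8 and Hcar2 are descriptions. Of the other 6, all 6 were called lower, against 4.09% of all genes, and all 6 did not overlap, against 13.7%. S100a9 is among these 6 and, as the partner of S100a8, is no independent evidence. Whether the 6 share 1 source in T-like cells was not tested, so the count is a description. Cxcr2 and Cxcl1 did not pass the filter. Without doublet removal 4 of the 8 calls remained, those of S100a8, S100a9, Cxcl2 and Hcar2, with 509 of 10975 genes called in all. In B-like cells 4 genes could be tested: S100a8 (-1.72 ± 0.20), S100a9 (-1.61 ± 0.16, adjusted p 1.82e-06) and Cxcl2 (-1.60 ± 0.23, 0.000119) were lower and Il1b was not (-0.40 ± 0.23, 0.505), so 2 of the 3 genes other than S100a8 were called against 2.75%, and 2 of 3 did not overlap against 7.72%. Here too S100a9 is no independent evidence, and the count is a description.

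The T-like level as a share of the whole-sample level had means over samples from 3.56% for Cxcl2 to 5.41% for S100a9 in iKO, and from 4.08% for Cxcl1 to 8.59% for Cxcl3 in control. Single samples spread widely: the S100a8 share had a range of 1.39% to 9.92% among the iKO samples and of 2.32% to 8.11% among the controls. Against neutrophil-like cells it was small: 0.0593% for S100a8 in iKO and 0.399% in control, 0.171% and 0.407% for Hcar2, and 0.657% and 1.70% for Il1b. Subtracting the T-like level moved the neutrophil-like log2 ratio of means most for Cxcl1, from 1.49 to 1.53. Some small classes stood apart in single samples. NK-like cells of iKO sample 2 had 719 CPM of S100a8 and 1340 of S100a9, against 53.7 to 61.0 and 60.7 to 96.7 in the other iKO samples, and cDC1-like cells of control sample 1 had 874 and 1170, against 61.3 to 76.5 and 80.9 to 116 in the other control samples. Some of these values came from fewer than the 20 cells required of a profile. They were 9 and 12 NK-like cells in iKO samples 3 and 4, and 19 and 16 cDC1-like cells in control samples 1 and 2.

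The share of cells with a UMI was compared after thinning each cell to 1000 UMIs, because depth differed between genotypes and classes. Cells under that depth were left out, 8 and 30 neutrophil-like cells in iKO and control, whose classes had median depths of 5839.5 and 4039 UMIs. Hcar2 was detected in 49.3% ± 15.6 (SD, n = 4) of neutrophil-like cells in iKO and 57.1% ± 14.1 in control, against 83.7% and 79.2% before thinning. It was detected in 3.27% and 6.62% of monocyte/macrophage-like cells and in 0.287% and 0.570% of T-like cells, whose median depths before thinning were 14868 and 14121, and 13292 and 6657.5. S100a8 was detected in 92.9% and 92.8% of neutrophil-like cells, 5.30% and 13.2% of monocyte/macrophage-like cells and 4.55% and 16.2% of T-like cells, so its monocyte/macrophage-like share in control was below the T-like share after thinning and above it before. Before thinning, these S100a8 shares were 95.8% and 98.1%, 41.7% and 72.1%, and 35.9% and 62.3%. Il1b was detected in 63.4% and 61.7% of monocyte/macrophage-like cells (91.2% and 92.6% unthinned) against 5.48% and 13.8% of T-like cells (46.2% and 57.8%), and Cxcl2 in 24.6% and 41.6% (51.1% and 82.0%) against 3.70% and 13.7% (26.4% and 59.5%). Csf3r was detected in 5.70% and 3.41% of monocyte/macrophage-like cells against 0.264% and 0.399% of T-like cells, and unthinned in 48.4% and 32.9% against 1.91% and 3.76%.

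Other genes of the same pathways were counted from lists that hold none of the 10. In neutrophil-like cells, where 1.45% of all genes were called, of the interleukin-1 axis 2 of 16 tested genes were higher in iKO and 0 lower, with a median log2 fold change of 0.24 against 0.02 over all genes tested: Il18bp, a secreted inhibitor of interleukin-18 (32.4 and 7.90 CPM after library scaling, 2.00 ± 0.38, edgeR adjusted p 0.0179), and Casp1, the protease that matures interleukin-1 beta (62.0 and 25.1 CPM, 1.26 ± 0.24, 0.0203). Casp4, the third by adjusted p, had 1.08 ± 0.32 (0.195). Of 8 neutrophil-attracting ligands 1 was lower, Pf4, a platelet and macrophage chemokine (13.6 and 77.9 CPM, -2.36 ± 0.32, 0.00299). Pf4 also leads the monocyte/macrophage-like cluster 14, and the part of such cells in that value was not tested. Of 16 granule and secreted proteins none was called, with a median of 1.15, and the values of Ngp (707 and 95.5 CPM, 2.87 ± 0.94, adjusted p 0.282), Ltf (3.00 ± 1.01, 0.292) and Chil1 (1.33 ± 0.45, 0.303) had wide errors. None was called of 20 chemotaxis receptors and adhesion genes (median 0.36, smallest adjusted p 0.334 for Cxcr4), 23 NF-kappaB response genes (0.18, Tlr2 0.12), 10 prostanoid and leukotriene genes (0.17, Ptger2 0.62) and 7 metabolite receptor and ketone genes (0.08). In that last list Ffar2, a receptor for short-chain fatty acids, had 12.9 and 3.98 CPM (1.64 ± 0.43, adjusted p 0.121).

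The lists moved in both directions in monocyte/macrophage-like cells, with a median of 0 over all genes tested, 11.5% of which were called. Of 16 interleukin-1 axis genes 4 were higher and 0 lower, among them Myd88, the adaptor of interleukin-1 and Toll-like receptors (134 and 70.7 CPM, 0.92 ± 0.16, edgeR adjusted p 0.013), Il18 (0.84 ± 0.18, 0.0228) and Gsdmd, the pore protein that releases mature interleukin-1 beta (0.60 ± 0.16, 0.0455). Of 10 attracting ligands 3 were lower and 1 higher. Csf3, the ligand of Csf3r, was lower at a low level (0.380 and 1.83 CPM, -2.29 ± 0.51, 0.0244), as was Ccl6 (932 and 2070 CPM, -1.15 ± 0.30, 0.0415), and Ccl4 was higher (1370 and 816 CPM, 0.75 ± 0.19, 0.0369). Of 23 NF-kappaB response genes 6 were higher and 2 lower, with Cd14, the lipopolysaccharide co-receptor, lower (695 and 1240 CPM, -0.84 ± 0.09, 0.00342) and Traf1 (0.86 ± 0.17, 0.0189) and Nfkb2 (0.66 ± 0.15, 0.024) higher. Of 15 granule genes 3 were higher and 2 lower, including Cybb, a subunit of the phagocyte oxidase (0.83 ± 0.18, 0.0228), Elane (1.54 and 0.147 CPM, 3.39 ± 0.72, 0.021) and Mmp8 (-1.01 ± 0.20, 0.017). Of 19 chemotaxis and adhesion genes 3 were higher and 2 lower, including Itgb2 (0.68 ± 0.16, 0.0284), Csf2ra (0.44 ± 0.11, 0.036) and Clec4d (-0.54 ± 0.12, 0.0226). Of 16 prostanoid genes, only the prostaglandin E2 receptor Ptger2 was called, lower (-0.89 ± 0.14, 0.00934), and of 9 metabolite receptor and ketone genes none was, the smallest adjusted p being 0.11 for Ffar2.

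The genes whose level over 63 class-by-sample profiles of 9 classes was most like that of Hcar2, among 7734 genes compared, were Fbxl5 (Pearson r 0.932), Clec4d (0.922), Trem1 (0.910), Ptgs2os2 (0.909) and Lrg1 (0.907). The closest to S100a8 were Retnlg (0.977), Mirt2 (0.964) and Lcn2 (0.959), the closest to Il1b were Ifitm2 (0.954), Wfdc17 (0.942) and Il13ra1 (0.932), and the closest to Cxcl2 were Clec4d (0.941), C5ar1 (0.924) and Hilpda (0.919). The profiles share samples and depth, and classes set most of the spread, so these values are descriptions without a p.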

How the data were processed

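Single-cell 3' RNA was counted by the authors with Cell Ranger 7.1.0, per the file headers and the submitters' processing notes, which also name GRCm39. The deposited values are raw UMI counts per gene and cell, 1 matrix per hashtagged sample, 4 per genotype. Cells with at least 300 genes and at most 10% mitochondrial UMIs were kept, 438 doublets (Scrublet score above 0.25, 1.95%) were removed, and cells were clustered with scanpy 1.11.5 and leidenalg 0.10.2 at resolution 2 on 30 principal components. The 10 genes, the pathway lists, Trex1, immune receptor segments, mitochondrial, ribosomal and sex-linked genes were left out of clustering. UMI counts of each class and sample of at least 20 cells were summed and tested in R 4.3.3 with edgeR 4.0.16 (TMM, filterByExpr, quasi-likelihood test, Benjamini-Hochberg over all genes tested, threshold 0.05), after a check on simulated data. DESeq2 1.42.0 was an alternative, with others of filter, gate, clustering, doublets and left-out samples. SE is the log2 fold change divided by the square root of F.

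The 10 genes and the lists were chosen with earlier results of these data known. Named were all 10 genes, up to 3 genes of each list with the smallest adjusted p in the 2 myeloid classes, and the most alike genes by Pearson r of log2(CPM + 1), mean CPM at least 10. iKO and control samples share the numbers 1 to 4 in the labels. The deviations of same-numbered samples correlated at 0.50, 0.24, 0.15 and 0.53, so the numbers were treated as pairing the samples in the blocked alternative, although numbers 2 and 3 correlated best with another number.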

Additional observations from a re-analysis of the deposited data

Results flagged for a closer look

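Of 138 groups of 4 samples examined, 10 held a sample that stood apart from the other 3 by Dixon's criterion at the 95% level, a criterion that chance meets in about 5% of groups. Within neutrophil-like cells, Ptgs2 of control sample 1 was at 692 CPM, while the other 3 controls had 1330 to 1440. iKO sample 2 stood apart in mature DC-like cells for S100a8 (149 CPM against 23.4 to 37.5), S100a9 (157 against 42.8 to 53.9) and Cxcl2 (127 against 17.5 to 27.4). In cDC2-like cells, control sample 3 stood apart for S100a9 (255 CPM against 112 to 115) and Cxcr2 (7.44 against 0.728 to 1.67), and iKO sample 4 for S100a8 (45.3 against 26.4 to 29.3) and Cxcl3 (9.47 against 2.29 to 3.31). S100a8 in B-like cells of iKO sample 1 was at 132 CPM against 62.5 to 73.6, and Csf3r in mature DC-like cells of control sample 1 was at 9.06 CPM against 3.72 to 4.16.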

How the results depend on the processing

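Of 737 alternative values of single genes, 638 counted as unchanged, 6 moved by more than 1 SD, 47 lost and 21 gained a call and 25 changed sign. In refits, unchanged meant the same direction and side of the threshold. Where T-like levels were subtracted, it meant a shift under 1 SD. A sign change on subtraction was counted only for genes called in the class. The DESeq2 Wald test called 1381 genes over all cells (340 by edgeR), 148 in neutrophil-like (96), 2056 in monocyte/macrophage-like (1349) and 877 in T-like cells (441). Without the low-count filter, 301 genes were called in neutrophil-like cells, 172 in B-like cells (96) and 115 for the class by genotype interaction (1). The replicate block gave 708 genes over all cells and 1125 in T-like cells, turned Csf3r in neutrophil-like cells to -0.07 (-0.08 without the filter), and beside the changes given with Cxcl3, Csf3r, Cxcr2 and Ptgs2 changed no other call of the 10 genes. Leaving out 1 sample gave 108 to 488 genes over all cells, 59 to 93 in neutrophil-like, 365 to 1642 in monocyte/macrophage-like, 132 to 763 in T-like and 70 to 114 in B-like cells, and 1 to 19 for the interaction (19 without iKO sample 2, 8 without iKO sample 3). It gave a neutrophil-like share difference of -14.9 to -11.2 points at p = 0.0571, the smallest exact permutation p of 3 against 4 samples.

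Signs changed in neutrophil-like cells for Csf3r when iKO 3 (-0.32), iKO 4 (-0.01), control 1 (-0.06) or control 2 (-0.07) was left out (range -0.32 to 0.20), and on leaving out iKO 3 for Cxcr2 (-0.04, highest 0.62) and Il1b (-0.09, highest 0.30). The interaction of Il1b changed sign on leaving out iKO 3 (-0.12) or iKO 4 (-0.03), with a highest value of 0.42. Leaving out neutrophil-like cells turned Csf3r to 0.62, and subtracting T-like CPM turned S100a9 to 0.55 and Cxcr2 to 0.66 in monocyte/macrophage-like cells. Subtracting UMIs per cell, chosen after seeing the data, left S100a9 at -0.67 and turned Cxcr2 to 0.08. In neutrophil-like cells it turned Hcar2 (-0.31 to 0.25), Cxcl2 (-0.42 to 0.09), Ptgs2 (-0.54 to 0.05), Csf3r (-0.21 to 0.39) and Il1b (-0.06 to 0.52). These genes were not called there, so they are not among the 25 sign changes. Their ratios in UMIs per cell were already 0.24, 0.07, 0.02, 0.38 and 0.48 before subtraction. In 3 single clusters, an alternative chosen after seeing the data, signs changed in cluster 4 for S100a8 (-0.04), S100a9 (-0.15), Csf3r (-0.57), Cxcr2 (-0.67), Il1b (-0.30) and Hcar2 (0.03), in cluster 15 for Csf3r (-0.17), Cxcl2 (0.15) and Il1b (-0.04), and in cluster 3 for Ptgs2 (0.03) and Hcar2 (0.29). The cause of these changes was not tested. Depth limits Cxcr2 outside neutrophil-like cells, with 138 UMIs in iKO and 129 in control monocyte/macrophage-like cells and 29 and 50 in T-like cells. Neutrophil-like cells had 2283 and 4777. For Cxcl1 depth limits neutrophil-like cells, with 128 UMIs in iKO and 137 in control, and T-like cells, with 13 in each. Monocyte/macrophage-like cells had 951 and 1311 UMIs of Cxcl1.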
